A study of Homo sapiens with 9 samples.

Results

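A saracatinib-resistant and an oxaliplatin-resistant line of the same hepatocellular carcinoma cells were compared directly with each other, gene by gene. Both lines, MHCC97L-Src and MHCC97L-Oxa, were derived from MHCC97L, an established human hepatocellular carcinoma (HCC) cell line. MHCC97L-Src had been grown in rising amounts of saracatinib, an inhibitor of SRC family kinases, until it was stably resistant to 4 μmol/L. MHCC97L-Oxa was stably resistant to 2 μmol/L oxaliplatin, a platinum drug that crosslinks DNA. All lines were kept in DMEM with fetal bovine serum. The labels give oxaliplatin as the treatment of the MHCC97L-Oxa libraries, saracatinib for MHCC97L-Src and none for MHCC97L. The sources used here do not say whether either drug was in the medium when RNA was taken. Messenger RNA was sequenced in 3 libraries per line, 9 in all with the parental MHCC97L, and the comparison used the 6 libraries of the resistant lines, called Oxa 1 to Oxa 3 and Src 1 to Src 3. Of 20030 genes in the deposited count table, 14961 had at least 1 count in the 6 libraries and 11994 passed a filter on low counts, which kept genes with about 10 or more counts in at least 3 libraries. These 11994 genes were tested. Each drug is represented by 1 resistant line, so a difference caused by the drug and a difference that arose in a line for another reason cannot be told apart.

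SRC family kinases relay signals from integrins and growth factor receptors to the cytoskeleton at focal adhesions, the contacts that hold a cell to collagens, laminins and fibronectin. Transforming growth factor beta (TGF-β) acts through SMAD2 and SMAD3 and raises matrix and mesenchymal genes, while bone morphogenetic proteins (BMPs) act through SMAD1, SMAD5 and SMAD9 and raise the ID genes. Both pathways feed matrix production and the shift of HCC cells from an epithelial to a mesenchymal state. Platinum drugs enter and leave cells partly by metal and ABC transporters, are bound by metallothioneins and glutathione, and leave lesions that are removed by excision and crosslink repair.

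The libraries held 16970486 to 18209213 counts on genes, so 3 counts, taken as the smallest detectable amount, correspond to 0.162 to 0.192 CPM (counts scaled to the total of a library). Such floors cover counting error only. Levels are given in CPM scaled by TMM factors, and they compare libraries, not genes of different length. Correlations of log2 CPM over the tested genes were 0.984 to 0.990 within MHCC97L-Oxa, 0.969 to 0.988 within MHCC97L-Src and 0.966 to 0.982 across the lines. Src 2 and Src 3 stood apart from the other libraries and from each other. The deviation of each gene from its mean over all 6, set against its GC content, gave a rank correlation of 0.60 in Src 2 and -0.24 in Src 3, and GC content with gene length accounted for 40.7% of the variance of these deviations in Src 2. The log2 fold changes between the lines had a rank correlation with GC content of 0.45 across genes, and the part of GC content in the results below was not tested beyond the corrected fit given with them. About replicates the labels give a number only, while the study's text speaks of independent experiments. The p-values thus measure the spread between these libraries, which may be partly technical.

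The labelled liver origin was checked against marker genes. Of 35 hepatocyte genes, 12 had 0 counts in all 9 libraries, ALB, AFP, APOB and TTR among them, and 25 had fewer than 10 counts in each of the 6 libraries compared. Others were expressed in these 6 libraries, with 1701 to 2590 counts for CPS1, 216 to 352 for CEBPA and 70 to 109 for FOXA1. Of 14 leukocyte markers, 9 had 0 counts in all 9 libraries, PTPRC and LYZ among them. In the 6 libraries compared, CD68 had 1263 to 2608 counts and CD14 had 79 to 104. The endothelial markers KDR, EMCN and CLEC14A were at 0 in the 6 libraries, while PECAM1 had 15 to 39 counts there and ESAM had 17 to 39. Of 10 fibroblast markers COL1A2 was at 0 there too, while THY1 had 5276 to 7060 counts per library and COL1A1 had 1022 to 1491.

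edgeR's quasi-likelihood test called 556 genes at a Benjamini-Hochberg adjusted p under 0.05, or 4.64% of the genes tested. Of these, 254 were higher in MHCC97L-Src (2.12%) and 302 were higher in MHCC97L-Oxa (2.52%). The 3 libraries of one line did not overlap the 3 of the other for any of them. Since every called gene has this property, its mention for single genes or lists below adds nothing to their calls. The share of all tested genes without overlap is not given here. A log2 fold change over 1 in size was found for 104 genes higher in MHCC97L-Src and 164 higher in MHCC97L-Oxa. The shares of 2.12% and 2.52% are the background for the lists below. At such shares, 0 calls in 1 direction are common in a short list and do not make it one-sided. Over all tested genes the log2 fold change had a median of -0.02. Fold changes are MHCC97L-Src over MHCC97L-Oxa on a log2 scale with their standard errors, so negative values are lower in MHCC97L-Src, and n is 3 libraries per line throughout. Among the genes higher in MHCC97L-Oxa were members of the TGF-β and BMP responses, collagens, fibronectin, integrins and mesenchymal genes. The keratins KRT8 and KRT18, claudin 4, VE-cadherin, TNF receptor 2 and some enzymes of lipid synthesis were higher in MHCC97L-Src. Another keratin, KRT7, was lower in MHCC97L-Src. The number of calls depended on single libraries, since it was 167 without Oxa 2, 208 to 243 without Oxa 1, Oxa 3 or Src 1, 1033 without Src 2 and 1617 without Src 3. It was 86 when the parental libraries entered the same fit. With GC content and gene length corrected for, it was 1162, and 523 of the 552 genes called before and fitted again were called in this fit. Called in each of the 6 fits that left out 1 library were 159 of the 556 genes, 63 higher in MHCC97L-Src and 96 higher in MHCC97L-Oxa.

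**Figure D1:**
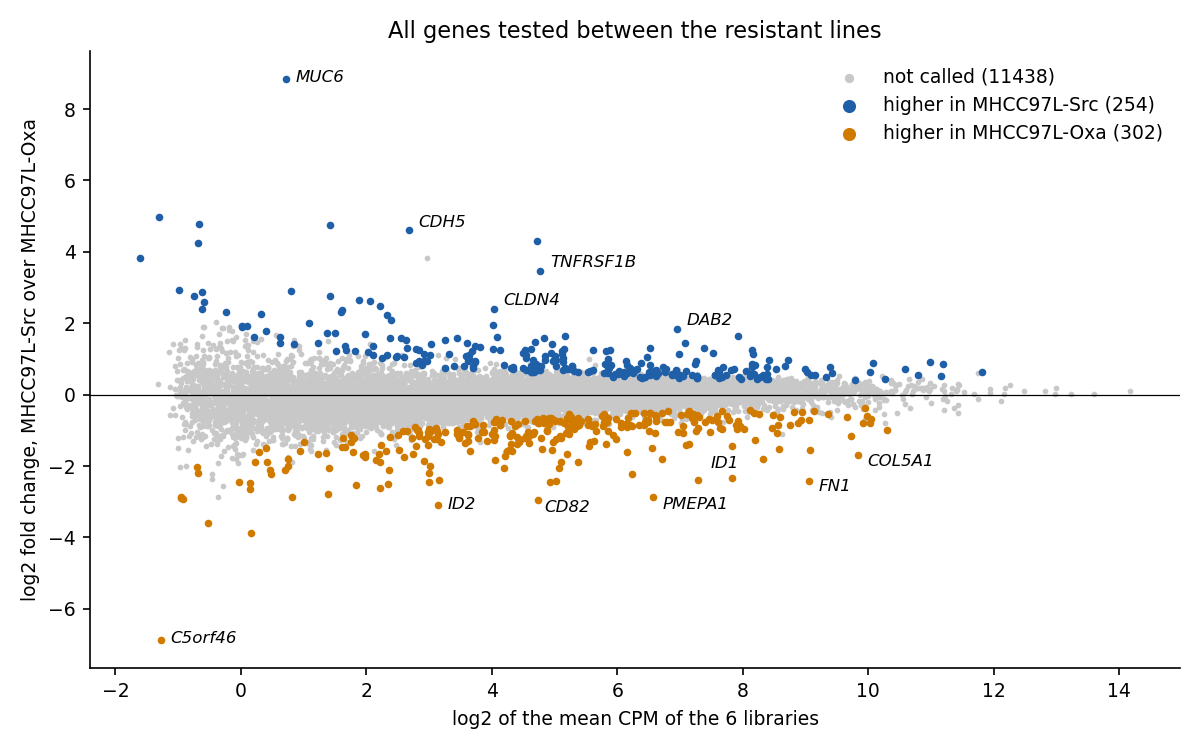
Log2 fold change of MHCC97L-Src over MHCC97L-Oxa against the log2 mean CPM of the 6 libraries, 1 point per tested gene. Coloured points are the 254 genes called higher in MHCC97L-Src and the 302 called higher in MHCC97L-Oxa at an adjusted p under 0.05, and named points are the 8 leading genes and 4 others, of which MUC6 and C5orf46 had 0 counts in 1 line, so that their plotted fold depends on the prior count.

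The 8 leading genes, taken as markers of the contrast when it was defined, are given first. PMEPA1 (chromosome 20, 57648392 to 57711536, minus strand, GRCh38) encodes a membrane protein that is induced by TGF-β and limits its signal. It was at 173, 169 and 159 CPM in the MHCC97L-Oxa libraries and at 24.4, 23.1 and 21.7 CPM in the MHCC97L-Src libraries. The lowest MHCC97L-Oxa library stood far above the highest MHCC97L-Src library, and the difference was 7.26-fold (edgeR log2 fold change -2.86 ± 0.12, adjusted p = 2.82e-06). FN1, fibronectin, the matrix glycoprotein that integrins bind, was at 870.4, 979.7 and 829 CPM in MHCC97L-Oxa and 176, 171 and 158 CPM in MHCC97L-Src (edgeR log2 fold change -2.41 ± 0.11, adjusted p = 4.84e-06). ID1, an inhibitor of helix-loop-helix transcription factors and a direct BMP target, was at 353, 389 and 403 CPM in MHCC97L-Oxa and 62.6, 93.3 and 70.1 CPM in MHCC97L-Src (edgeR log2 fold change -2.35 ± 0.16, adjusted p = 3.65e-05). All 3 genes were several times lower in every MHCC97L-Src library than in any MHCC97L-Oxa library. COL5A1, a chain of fibrillar collagen V, was at 1363, 1383 and 1434 CPM in MHCC97L-Oxa and 437, 492 and 371 CPM in MHCC97L-Src (edgeR log2 fold change -1.69 ± 0.12, adjusted p = 5.57e-05). CD82, a tetraspanin of the cell surface known as a suppressor of metastasis, was at 47.8, 43.2 and 49.96 CPM in MHCC97L-Oxa and 6.15, 6.85 and 5.43 CPM in MHCC97L-Src (edgeR log2 fold change -2.94 ± 0.17, adjusted p = 1.19e-05). On GRCh38 the other 4 lie at chr2:215360440-215436172 (FN1), chr20:31605283-31606515 (ID1), chr9:134641774-134844843 (COL5A1) and chr11:44564427-44620363 (CD82). In the parental line PMEPA1 was at 89.4, 126 and 97.3 CPM and FN1 at 464, 344 and 343 CPM, between the resistant lines, whereas CD82 at 26.5, 43.97 and 43.6 CPM reached the MHCC97L-Oxa range in 2 of the 3 libraries. With levels corrected for GC content and gene length, FN1 in MHCC97L-Src was no longer wholly below the parental libraries, and MHCC97L-Oxa alone stayed apart from them.

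The other 3 leading genes were higher in MHCC97L-Src. TNFRSF1B, TNF receptor 2, was at 5.15, 4.55 and 3.85 CPM in MHCC97L-Oxa and 47.3, 57.4 and 46.2 CPM in MHCC97L-Src, a 11.1-fold difference (edgeR log2 fold change 3.47 ± 0.18, adjusted p = 8.35e-06). The parental libraries, at 0.876, 0.991 and 0.613 CPM, were below both lines. CDH5, VE-cadherin, the adhesion protein of endothelial junctions, had counts of 8, 12 and 7 in MHCC97L-Oxa and 188, 196 and 236 in MHCC97L-Src, or 11.1, 12.8 and 12.9 CPM in the latter (edgeR log2 fold change 4.61 ± 0.28, adjusted p = 1.70e-05). Its level in MHCC97L-Oxa was thus close to the floor, and the parental libraries were at 0.876, 1.63 and 1.23 CPM. DAB2, an endocytic adaptor that SRC can phosphorylate, was at 57.2, 56.9 and 47.2 CPM in MHCC97L-Oxa and 209, 169.9 and 203 CPM in MHCC97L-Src (edgeR log2 fold change 1.85 ± 0.13, adjusted p = 5.75e-05). TNFRSF1B lies at chr1:12167003-12209228, CDH5 at chr16:66366622-66404786 and DAB2 at chr5:39371675-39462300. These 8 genes were called in every fit with 1 library left out and, where fitted, under every other setting. Since they were taken as markers of this contrast beforehand, that is no independent support for them.

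**Figure D2:**
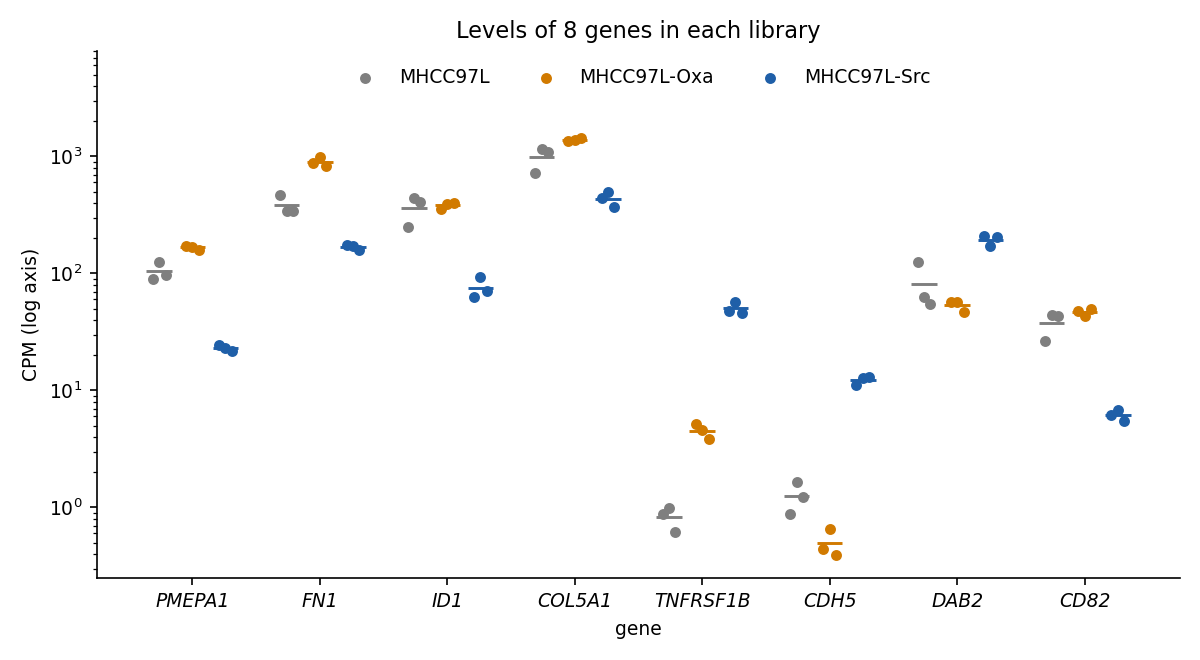
CPM of the 8 leading genes on a log axis in MHCC97L, MHCC97L-Oxa and MHCC97L-Src, with a dot per library and a bar at the mean of 3. For each gene the MHCC97L-Src dots lie on one side of all MHCC97L-Oxa dots; CDH5 in MHCC97L-Oxa lies at 0.391 to 0.65 CPM.

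Of 24 tested genes of the TGF-β pathway, 9 were higher in MHCC97L-Oxa and 1 was higher in MHCC97L-Src, with a median log2 fold change of -0.38 against -0.02 over all genes. The 9 were all among the 13 targets and feedback genes, whose median was -1.16, while 0 of 5 receptors and 0 of 3 SMAD2, SMAD3 and SMAD4 genes were called in either direction by edgeR. On the MHCC97L-Oxa side the count was 7 to 12 with 1 library left out. ANGPTL4, a secreted inhibitor of lipoprotein lipase, was at 92.8, 82.3 and 90.9 CPM in MHCC97L-Oxa and 34.7, 51.5 and 27.1 CPM in MHCC97L-Src (edgeR log2 fold change -1.24 ± 0.20, adjusted p = 0.00764). SKIL, a nuclear repressor of SMADs that TGF-β induces, was at 4.65, 6.55 and 10.7 CPM in MHCC97L-Oxa and 1.66, 2.41 and 1.92 CPM in MHCC97L-Src (edgeR log2 fold change -1.87 ± 0.34, adjusted p = 0.0129). SMAD7, the inhibitory SMAD of the feedback loop, had an edgeR log2 fold change of -1.21 ± 0.18 with an adjusted p of 0.00497. In each of these 3 genes the lines did not overlap. The exception among ligands was TGFB3, at 50.9, 44.4 and 48.2 CPM in MHCC97L-Src and 26.1, 21.6 and 17.8 CPM in MHCC97L-Oxa (edgeR log2 fold change 1.13 ± 0.17, adjusted p = 0.00437). TGFB1, the main ligand in most tissues, was at 230.2, 305 and 203 CPM in MHCC97L-Src and 294, 285 and 289.7 CPM in MHCC97L-Oxa, and was not called (edgeR log2 fold change -0.24 ± 0.14, adjusted p = 0.377). Without 1 library, edgeR dropped SKIL without Oxa 2 or Src 1 (adjusted p up to 0.0606).

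Among 20 tested BMP genes, 5 were higher in MHCC97L-Oxa and 1 in MHCC97L-Src, with a median of -0.59. The targets led here too, with 4 of 6 called and a median of -1.47. As single libraries were dropped, the MHCC97L-Oxa count among these 20 genes was 4 to 7, with 7 without Src 3. ID2 was at 18.1, 14.7 and 14.8 CPM in MHCC97L-Oxa and 1.60, 1.11 and 2.80 CPM in MHCC97L-Src (edgeR log2 fold change -3.09 ± 0.31, adjusted p = 5.08e-04), and ID3 was at 509, 472 and 508 CPM and 134, 176 and 118 CPM in that order (edgeR log2 fold change -1.80 ± 0.15, adjusted p = 1.10e-04). With ID1, each of these helix-loop-helix inhibitors was lower in all 3 MHCC97L-Src libraries. In the parental line ID2 was higher than in either resistant line, at 47.4, 49.6 and 26.7 CPM. SMAD6, the inhibitory SMAD of the BMP branch, was at 32.9, 32.9 and 33.5 CPM in MHCC97L-Oxa and 14.4, 14.9 and 15.6 CPM in MHCC97L-Src (edgeR log2 fold change -1.14 ± 0.15, adjusted p = 0.00197). BMP6, a ligand, was lower in MHCC97L-Src (edgeR log2 fold change -1.01 ± 0.22, adjusted p = 0.0280). GDF15, a stress-induced member of the family, was at 82.2, 111 and 86.7 CPM in MHCC97L-Src and 47.98, 49.9 and 45.996 CPM in MHCC97L-Oxa (edgeR log2 fold change 0.95 ± 0.14, adjusted p = 0.00437). The edgeR calls that depended on single libraries were those of BMP6 without Oxa 1, Oxa 2, Oxa 3 or Src 1 (adjusted p up to 0.135).

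The start regions of 2 of these genes and of CTGF are shown as examples. CTGF is read by both TGF-β and YAP signalling and is described below. All 3 genes were lower in MHCC97L-Src, and each region printed holds at least 1 of 2 short motifs. Start regions of other genes lower in MHCC97L-Src, such as PMEPA1, FN1, COL5A1 and SMAD7, were also available and are not printed. The 3 regions thus do not show how often such genes hold a motif. Each region printed runs from 250 bases before to 50 after the start given by RefSeq on GRCh38.p14, with SMAD6 at chr15:66701986-66702285 on the plus strand, ID1 at chr20:31605039-31605338 on the plus strand and CTGF at chr6:131951323-131951622 on the minus strand. Capitals mark the SMAD palindrome GTCTAGAC and the TEAD motif GGAATG or its reverse complement CATTCC, and the motifs were searched on both strands.
SMAD6: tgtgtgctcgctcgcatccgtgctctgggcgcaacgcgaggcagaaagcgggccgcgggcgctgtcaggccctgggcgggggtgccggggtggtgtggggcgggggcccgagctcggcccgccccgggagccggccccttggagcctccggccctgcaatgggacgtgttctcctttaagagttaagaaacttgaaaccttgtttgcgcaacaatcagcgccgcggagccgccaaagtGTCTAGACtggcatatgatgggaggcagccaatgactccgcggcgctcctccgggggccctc
ID1: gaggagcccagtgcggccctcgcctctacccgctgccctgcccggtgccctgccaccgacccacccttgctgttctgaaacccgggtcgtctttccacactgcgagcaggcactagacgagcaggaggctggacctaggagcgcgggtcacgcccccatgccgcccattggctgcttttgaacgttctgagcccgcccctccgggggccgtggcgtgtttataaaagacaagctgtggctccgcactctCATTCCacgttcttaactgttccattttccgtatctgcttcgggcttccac
CTGF: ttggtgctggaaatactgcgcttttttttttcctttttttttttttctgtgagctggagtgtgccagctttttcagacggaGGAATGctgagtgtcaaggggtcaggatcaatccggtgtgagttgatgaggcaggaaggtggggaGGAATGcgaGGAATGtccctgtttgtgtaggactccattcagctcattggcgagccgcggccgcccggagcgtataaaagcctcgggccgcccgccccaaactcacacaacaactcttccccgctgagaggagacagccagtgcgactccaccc
The SMAD palindrome occurred once in SMAD6, at -12 from the start, and was found in 0.202% of 35116 RefSeq promoters of this length. The TEAD motif occurred 3 times in CTGF, at -169, -104 and -95, and once in ID1, at -1. At least 1 TEAD motif was found in 14.03% of all promoters and 3 or more in 0.128%. A match describes letters in this window only.

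Of 20 tested collagens, 6 were higher in MHCC97L-Oxa and 1 in MHCC97L-Src, with a median of -0.27. The 6 comprised 2 chains of fibrillar collagens, 3 of the basement membrane zone and 1 other chain. COL7A1, the collagen of anchoring fibrils, was at 764, 815 and 833 CPM in MHCC97L-Oxa and 272, 308 and 249 CPM in MHCC97L-Src (edgeR log2 fold change -1.55 ± 0.11, adjusted p = 5.88e-05). COL12A1, a collagen that decorates fibrils, was at 53.9, 81.002 and 69.9 CPM and 27.7, 29.2 and 18.9 CPM in that order (edgeR log2 fold change -1.44 ± 0.20, adjusted p = 0.00353). For both, as for COL5A1, every MHCC97L-Src library was below every MHCC97L-Oxa library. COL18A1, whose cleaved end is endostatin, was at 9.25, 11.6 and 11.9 CPM and 4.62, 4.89 and 5.16 CPM (edgeR log2 fold change -1.17 ± 0.21, adjusted p = 0.0115). COL4A1, a main chain of basement membranes, was lower in MHCC97L-Src too (edgeR log2 fold change -0.75 ± 0.17, adjusted p = 0.0308). COL9A3, a minor cartilage collagen, was the exception (edgeR log2 fold change 0.70 ± 0.15, adjusted p = 0.0303). This MHCC97L-Oxa count was 3 to 7 with 1 library left out, 3 without Oxa 2, Oxa 3 or Src 1. In edgeR fits that left out 1 library, the call was lost for COL18A1 without Oxa 2, Oxa 3 or Src 1 (adjusted p up to 0.0891) and COL4A1 and COL9A3 without Oxa 1, Oxa 2, Oxa 3 or Src 1 (adjusted p up to 0.153).

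Matrix glycoproteins and proteoglycans gave 7 genes higher in MHCC97L-Oxa and 1 in MHCC97L-Src of 28 tested, with a median of -0.21. For the genes higher in MHCC97L-Oxa the count was 4 to 12 with 1 library left out, 4 without Oxa 2 and 12 without Src 3. DCN, decorin, a small proteoglycan that binds collagen and TGF-β, was at 69.9, 65.1 and 60.4 CPM in MHCC97L-Oxa and 17.5, 10.6 and 24.5 CPM in MHCC97L-Src (edgeR log2 fold change -1.89 ± 0.26, adjusted p = 0.00294). LAMB3, the beta chain of an epithelial laminin, was at 546, 584 and 568 CPM and 189, 233 and 176 CPM in that order (edgeR log2 fold change -1.51 ± 0.12, adjusted p = 1.10e-04). FN1, DCN and LAMB3 were separate between the lines in all libraries. THBS1, thrombospondin 1, an activator of latent TGF-β, was lower in MHCC97L-Src too (edgeR log2 fold change -1.19 ± 0.20, adjusted p = 0.00879). SPARC, a matrix protein that binds collagen, was higher in MHCC97L-Src (edgeR log2 fold change 0.41 ± 0.10, adjusted p = 0.0454). Leaving out 1 library at a time ended the edgeR call of THBS1 without Oxa 2 (adjusted p up to 0.0728) and SPARC without Oxa 1, Oxa 2, Oxa 3 or Src 1 (adjusted p up to 0.297). DCN and PDGFRB are also on the list of 10 fibroblast markers, whose summed level was 395 to 496 CPM in MHCC97L-Src and 561 to 573 CPM in MHCC97L-Oxa. Most of this sum came from THY1, at 331, 392 and 289 CPM in MHCC97L-Src and 368, 371 and 394 CPM in MHCC97L-Oxa, and COL1A1, at 68.8, 66.7 and 60.3 CPM and 75.8, 80.7 and 72.7 CPM in that order. Neither was called by edgeR (adjusted p = 0.486 and 0.300), and PDGFRA had no more than 1 count in any library. The part of these markers in the result was not tested.

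Integrins are the surface receptors of these proteins. Of 16 tested integrins, 8 were higher in MHCC97L-Oxa, with a median of -0.42. In the other direction, towards MHCC97L-Src, the number was 0 by edgeR, 0 by DESeq2 and 1 at an unadjusted p under 0.05. ITGB4, the beta chain that binds laminin in hemidesmosomes, was at 172, 170.3 and 171 CPM in MHCC97L-Oxa and 94.97, 108 and 78.1 CPM in MHCC97L-Src (edgeR log2 fold change -0.87 ± 0.13, adjusted p = 0.00419). ITGAV, the alpha chain that can activate latent TGF-β, was at 7.70, 13.5 and 17.97 CPM and 5.09, 5.74 and 4.94 CPM in that order (edgeR log2 fold change -1.32 ± 0.30, adjusted p = 0.0343). ITGA1, of a collagen receptor, was at 16.6, 22.7 and 29.4 CPM and 13.02, 10.6 and 7.19 CPM (edgeR log2 fold change -1.17 ± 0.27, adjusted p = 0.0361). These chains were lower in MHCC97L-Src in every library, with wider spread in ITGAV. ITGA2, of another collagen receptor, was at 8.14, 12.6 and 14.3 CPM in MHCC97L-Oxa and 5.56, 6.65 and 5.21 CPM in MHCC97L-Src (edgeR log2 fold change -1.02 ± 0.25, adjusted p = 0.0488). The fibronectin receptor chain ITGA5 had an edgeR log2 fold change of -0.78 ± 0.12 with an adjusted p of 0.00573. All 8 integrins were lower in every MHCC97L-Src library than in any MHCC97L-Oxa library. The count higher in MHCC97L-Oxa was 3 to 8 with 1 library left out, 3 without Oxa 2, Oxa 3 or Src 1, and 5 once GC content and gene length were corrected for. It was 0 with all 9 libraries in 1 edgeR fit, where 4 had an unadjusted p under 0.05, and 8 by DESeq2 on the 6 libraries. The edgeR call did not hold for ITGAV, ITGA1 and ITGA2 without Oxa 2, Oxa 3 or Src 1 (adjusted p up to 0.227) and ITGA5 without Src 1 (adjusted p up to 0.0559).

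Of 22 tested SRC family kinases, substrates and focal adhesion genes, 3 were higher in MHCC97L-Oxa and 2 in MHCC97L-Src, and the median lay near 0 with a sign that changed without Src 3. The drug's own target SRC was at 1.83, 1.63 and 0.768 CPM in MHCC97L-Src and 2.55, 1.25 and 1.28 CPM in MHCC97L-Oxa, with overlap between the lines, and was not called (edgeR log2 fold change -0.27 ± 0.43, adjusted p = 0.775, 95% interval -1.23 to 0.68). FYN, another kinase of the family, was at 42.5, 35.9 and 48.4 CPM in MHCC97L-Src and 23.4, 21.1 and 20.4 CPM in MHCC97L-Oxa (edgeR log2 fold change 0.96 ± 0.16, adjusted p = 0.00836). NEDD9, a scaffold protein of focal adhesions that SRC phosphorylates, was at 2.07, 2.61 and 2.74 CPM in MHCC97L-Src and 14.4, 11.2 and 14.9 CPM in MHCC97L-Oxa (edgeR log2 fold change -2.44 ± 0.23, adjusted p = 3.48e-04). NEDD9 was thus several times lower in every MHCC97L-Src library, whereas FYN and DAB2 were higher. CAV1, caveolin 1, was at 98.1, 88.3 and 75.6 CPM in MHCC97L-Oxa and 47.5, 33.9 and 58.5 CPM in MHCC97L-Src (edgeR log2 fold change -0.90 ± 0.20, adjusted p = 0.0298). On the MHCC97L-Oxa side the count was 1 to 5 with 1 library left out, 1 without Oxa 1, Oxa 2, Oxa 3 or Src 1 and 5 without Src 3, and the count higher in MHCC97L-Src was 1 to 3 with 1 library left out, 1 without Oxa 2 or Oxa 3. With 1 library fewer, edgeR no longer called FYN without Oxa 2 or Oxa 3 (adjusted p up to 0.0728) and CAV1 without Oxa 1, Oxa 2, Oxa 3 or Src 1 (adjusted p up to 0.141).

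Matrix metalloproteinases, their relatives and inhibitors gave 4 genes higher in MHCC97L-Oxa and 1 in MHCC97L-Src of 22 tested, with 0 of 7 inhibitors called by edgeR. ADAM12, a membrane protease that sheds growth factors, was at 6.59, 8.45 and 5.41 CPM in MHCC97L-Oxa and 2.90, 2.22 and 2.52 CPM in MHCC97L-Src (edgeR log2 fold change -1.42 ± 0.26, adjusted p = 0.0127). ADAM19, its relative, was at 29.8, 34.1 and 33.1 CPM and 20.2, 16.8 and 20.7 CPM in that order (edgeR log2 fold change -0.75 ± 0.16, adjusted p = 0.0260), and PLAT, tissue plasminogen activator, was at 34.9, 40.2 and 37.8 CPM and 25.3, 21.4 and 25.7 CPM (edgeR log2 fold change -0.64 ± 0.15, adjusted p = 0.0398). MMP24, a membrane type metalloproteinase, was the exception, at 2.22, 2.82 and 2.18 CPM and 6.04, 8.15 and 4.50 CPM (edgeR log2 fold change 1.36 ± 0.28, adjusted p = 0.0247). MMP2, a gelatinase, was also lower in MHCC97L-Src (edgeR log2 fold change -0.46 ± 0.11, adjusted p = 0.0392). The other 4 were higher in all MHCC97L-Oxa libraries, but the group rested on single libraries, since the count was 0 to 7 with 1 library left out, 0 or 1 without Oxa 1, Oxa 2, Oxa 3 or Src 1 and 7 without Src 2. This number was 0 with all 9 libraries in 1 edgeR fit, where 4 had an unadjusted p under 0.05, and 6 by DESeq2 on the 6 libraries. Without 1 library, edgeR dropped ADAM12 without Oxa 2 (adjusted p up to 0.101) and ADAM19, PLAT, MMP24 and MMP2 without Oxa 1, Oxa 2, Oxa 3 or Src 1 (adjusted p up to 0.272).

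Of 17 tested mesenchymal genes, 7 were higher in MHCC97L-Oxa, with a median of -0.75. Genes higher in MHCC97L-Src numbered 0 by edgeR, by DESeq2 and at an unadjusted p under 0.05. AXL, a receptor tyrosine kinase of mesenchymal carcinoma cells, was at 111, 106 and 106 CPM in MHCC97L-Oxa and 39.7, 31.1 and 36.04 CPM in MHCC97L-Src (edgeR log2 fold change -1.60 ± 0.13, adjusted p = 1.10e-04). FOXC2, a transcription factor of the epithelial to mesenchymal transition, was at 41.7, 44.7 and 37.2 CPM and 14.1, 16.9 and 12.4 CPM in that order (edgeR log2 fold change -1.52 ± 0.17, adjusted p = 8.08e-04). PDGFRB, a receptor for platelet-derived growth factor, was at 30.6, 31.5 and 30.4 CPM in MHCC97L-Oxa and 11.5, 15.7 and 9.93 CPM in MHCC97L-Src (edgeR log2 fold change -1.32 ± 0.19, adjusted p = 0.00395). All 3 were separate between the lines. SNAI2, the repressor Slug, was at 8.03, 5.79 and 3.91 CPM in MHCC97L-Oxa and 1.60, 1.30 and 2.58 CPM in MHCC97L-Src (edgeR log2 fold change -1.68 ± 0.36, adjusted p = 0.0266). The 2 most used mesenchymal markers were not called, since VIM was at 1654, 1400.3 and 1289 CPM in MHCC97L-Oxa and 1022, 782 and 1156 CPM in MHCC97L-Src (edgeR log2 fold change -0.55 ± 0.16, adjusted p = 0.0798), and CDH2, N-cadherin, had an edgeR log2 fold change of -0.60 ± 0.21 with an adjusted p of 0.148. As single libraries were dropped, the MHCC97L-Oxa count was 4 to 9 with 1 library left out, 4 without Oxa 1 or Oxa 2. The edgeR calls that depended on single libraries were those of SNAI2 without Oxa 1, Oxa 2 or Src 1 (adjusted p up to 0.117).

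Epithelial genes went mainly the other way, with 4 higher in MHCC97L-Src and 1 higher in MHCC97L-Oxa of 13 tested, but their median lay near 0 and changed sign with the scaling. CLDN4, a tight junction claudin, was at 25.7, 31.96 and 24.7 CPM in MHCC97L-Src and 4.88, 6.12 and 4.52 CPM in MHCC97L-Oxa (edgeR log2 fold change 2.40 ± 0.20, adjusted p = 1.27e-04). TJP3, a scaffold of tight junctions, was at 11.3, 9.52 and 9.27 CPM and 4.88, 4.82 and 3.01 CPM (edgeR log2 fold change 1.24 ± 0.24, adjusted p = 0.0169). KRT18, a keratin of simple epithelia, was at 2589.8, 3174 and 2175 CPM and 1415, 1336 and 1467 CPM in that order (edgeR log2 fold change 0.91 ± 0.14, adjusted p = 0.00471), and its partner KRT8 had an edgeR log2 fold change of 0.87 ± 0.16 with an adjusted p of 0.0136. Both keratins have near-identical copies elsewhere in the genome, so their counts are uncertain. KRT7, a keratin of bile ducts, was lower in MHCC97L-Src, at 778, 1044 and 703 CPM against 1577, 1575 and 1851 CPM (edgeR log2 fold change -0.99 ± 0.15, adjusted p = 0.00501). This MHCC97L-Src count was 2 to 5 with 1 library left out, 2 without Oxa 1, Oxa 2, Oxa 3 or Src 1. The bile duct markers KRT19 and EPCAM had no more than 4 and 2 counts in any of the 6 libraries, and the summed level of 7 such markers was 709.8 to 1050.0 CPM in MHCC97L-Src and 1583 to 1858 CPM in MHCC97L-Oxa. Nearly all of this sum came from KRT7, so it restates that gene. E-cadherin (CDH1) did not pass the filter. In edgeR fits that left out 1 library, the call was lost for TJP3 and KRT8 without Oxa 1, Oxa 2, Oxa 3 or Src 1 (adjusted p up to 0.106).

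Genes best known from endothelium were higher in MHCC97L-Src in 3 of 12 tested, with a median of 0.48. On the MHCC97L-Oxa side there were 0 by edgeR, 0 by DESeq2 and 1 at an unadjusted p under 0.05. Beside CDH5, UNC5B, a netrin receptor, was at 199.5, 213 and 184 CPM in MHCC97L-Src and 67.04, 79.9 and 70.8 CPM in MHCC97L-Oxa (edgeR log2 fold change 1.45 ± 0.12, adjusted p = 1.10e-04), and EPHB4, an ephrin receptor, was at 222, 220.4 and 237 CPM in MHCC97L-Oxa and 307, 394 and 288 CPM in MHCC97L-Src (edgeR log2 fold change 0.54 ± 0.13, adjusted p = 0.0454). Of the 10 endothelial markers, CDH5 alone was called, while VWF had no more than 4 counts in any of the 6 libraries. The summed level of the 10 markers was 14.6 to 17.01 CPM in MHCC97L-Src and 2.60 to 3.74 CPM in MHCC97L-Oxa. Most of the sum in MHCC97L-Src came from CDH5, at 11.1, 12.8 and 12.9 CPM. The sum thus mainly restates this leading gene and is no separate sign of endothelial cells. For the genes higher in MHCC97L-Src the count was 2 to 5 with 1 library left out, 5 without Src 3. In bulk RNA fewer cells of a type and less RNA per cell cannot be told apart. Leaving out 1 library at a time ended the edgeR call of EPHB4 without Oxa 1, Oxa 2, Oxa 3 or Src 1 (adjusted p up to 0.231).

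**Figure D3:**
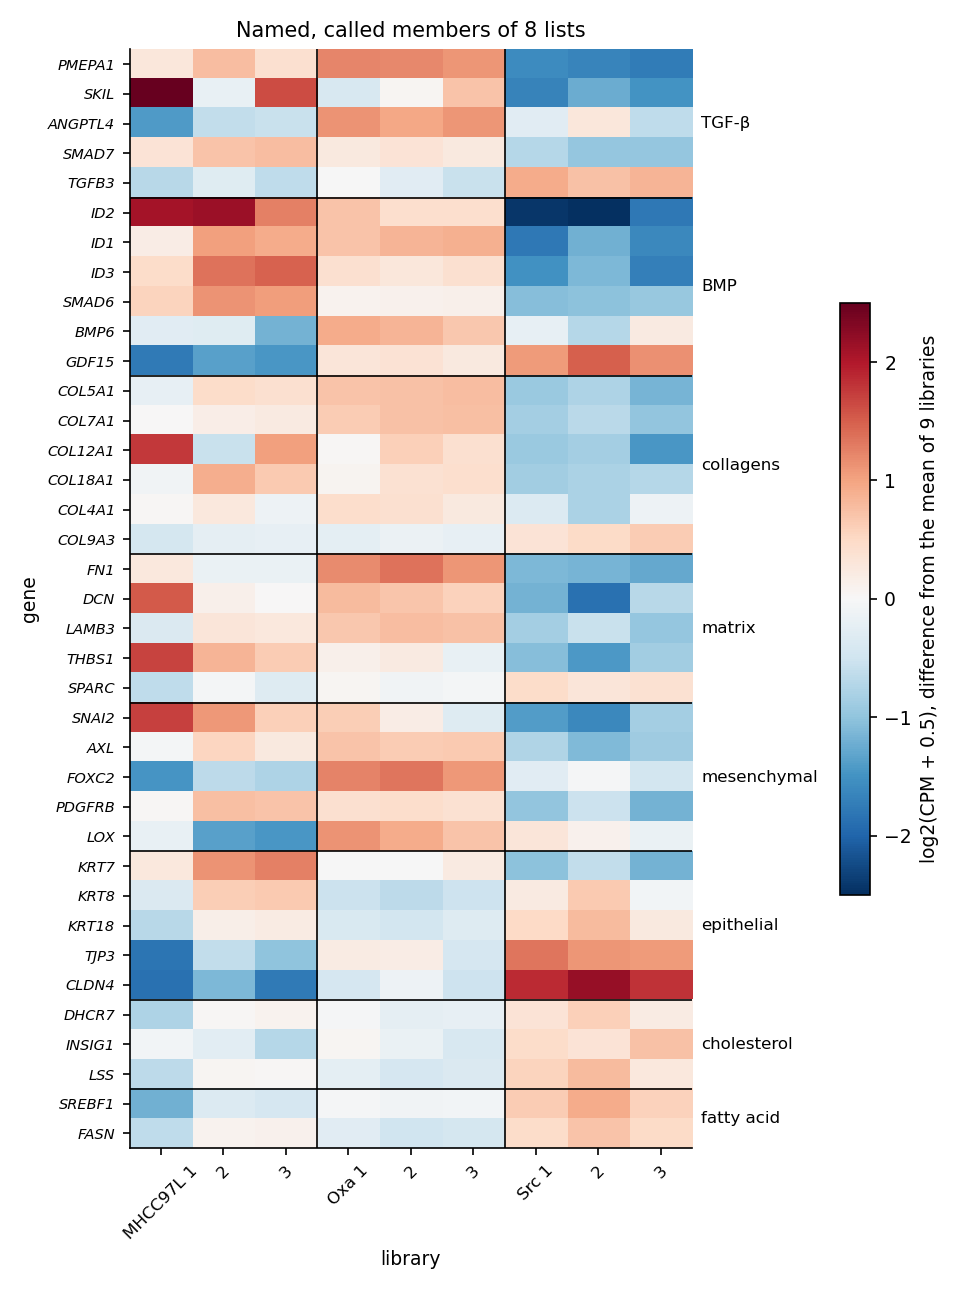
Log2(CPM + 0.5) minus the mean of the 9 libraries, for the called members of 8 lists that the text names (TGF-β, BMP, collagens, matrix glycoproteins, mesenchymal, epithelial, cholesterol and fatty acid genes), 1 column per library. Of the genes shown, 4, 5, 5, 4, 5 and 1 of the first 6 lists are higher in MHCC97L-Oxa, and the cholesterol and fatty acid genes shown are higher in MHCC97L-Src.

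Targets of YAP and TAZ, the coactivators that respond to cell spreading and tension, gave 4 genes higher in MHCC97L-Oxa and 1 in MHCC97L-Src of 18 tested, with a median of -0.32. CTGF (now CCN2), a matricellular growth factor, was at 14.9, 16.7 and 13.5 CPM in MHCC97L-Oxa and 3.02, 1.63 and 3.84 CPM in MHCC97L-Src (edgeR log2 fold change -2.40 ± 0.29, adjusted p = 0.00150). CYR61 (now CCN1), its relative, was at 79.3, 89.8 and 83.8 CPM and 38.8, 38.7 and 37.8 CPM in that order (edgeR log2 fold change -1.14 ± 0.12, adjusted p = 6.51e-04). Both were lower in every MHCC97L-Src library. NUAK2, a kinase, was the exception (edgeR log2 fold change 1.03 ± 0.18, adjusted p = 0.0116). The count higher in MHCC97L-Oxa was 3 to 6 with 1 library left out. The edgeR call did not hold for NUAK2 without Oxa 1, Oxa 2, Oxa 3 or Src 1 (adjusted p up to 0.0946).

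Among 17 immediate early genes, 3 were higher in MHCC97L-Oxa, and the number higher in MHCC97L-Src was 0 by edgeR, 0 by DESeq2 and 1 at an unadjusted p under 0.05. JUN was at 74.7, 66.1 and 71.5 CPM in MHCC97L-Oxa and 27.99, 30.2 and 28.3 CPM in MHCC97L-Src (edgeR log2 fold change -1.30 ± 0.13, adjusted p = 3.85e-04), and JUNB, another AP-1 subunit, had an edgeR log2 fold change of -0.84 ± 0.12 with an adjusted p of 0.00457. On the MHCC97L-Oxa side the count was 2 to 5 with 1 library left out, 5 without Src 2. ERK pathway output had 2 of 13 genes higher in MHCC97L-Src, the phosphatases DUSP5 (edgeR log2 fold change 0.81 ± 0.16, adjusted p = 0.0167) and DUSP4 (edgeR log2 fold change 0.75 ± 0.13, adjusted p = 0.0101), and this count was 0 to 2 with 1 library left out, 0 or 1 without Oxa 1, Oxa 2, Oxa 3 or Src 1. The number higher in MHCC97L-Oxa was 0 by edgeR, by DESeq2 and at an unadjusted p under 0.05. With 1 library fewer, edgeR no longer called DUSP5 without Oxa 1, Oxa 2, Oxa 3 or Src 1 (adjusted p up to 0.106) and DUSP4 without Oxa 1, Oxa 3 or Src 1 (adjusted p up to 0.0836).

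Of 25 receptor tyrosine kinases outside the ERBB family and their ligands, 5 were higher in MHCC97L-Oxa, with a median of -0.34. They were AXL, PDGFRB, the growth factors FGF2 (edgeR log2 fold change -1.07 ± 0.23, adjusted p = 0.0253) and VEGFA (edgeR log2 fold change -0.55 ± 0.10, adjusted p = 0.0129) and the insulin-like growth factor receptor IGF1R (edgeR log2 fold change -0.45 ± 0.11, adjusted p = 0.0478). In the other direction, towards MHCC97L-Src, the number was 0 by edgeR, 1 by DESeq2 and 3 at an unadjusted p under 0.05. As single libraries were dropped, the MHCC97L-Oxa count was 2 to 7 with 1 library left out, 2 without Oxa 1, Oxa 2, Oxa 3 or Src 1. Of 13 ERBB receptors, ligands and regulators, 1 was called in each direction, NRG2, a ligand of ERBB3 and ERBB4, higher in MHCC97L-Src (edgeR log2 fold change 2.60 ± 0.52, adjusted p = 0.0211) and ERRFI1, an inhibitor of EGFR, higher in MHCC97L-Oxa (edgeR log2 fold change -0.76 ± 0.16, adjusted p = 0.0272). EGFR itself was at 75.6, 83.9 and 71.2 CPM in MHCC97L-Oxa and 58.3, 52.3 and 54.6 CPM in MHCC97L-Src and was not called (edgeR log2 fold change -0.48 ± 0.12, adjusted p = 0.0548). Without 1 library, edgeR dropped FGF2, VEGFA, IGF1R and NRG2 without Oxa 1, Oxa 2, Oxa 3 or Src 1 (adjusted p up to 0.257) and ERRFI1 without Oxa 1, Oxa 2 or Src 1 (adjusted p up to 0.125).

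Genes of HLA class II presentation were higher in MHCC97L-Oxa in 4 of 8 tested, with a median of -2.02. Genes higher in MHCC97L-Src numbered 0 by edgeR, by DESeq2 and at an unadjusted p under 0.05. CD74, the invariant chain, was at 29.1, 25.6 and 23.3 CPM in MHCC97L-Oxa and 6.45, 10.4 and 5.05 CPM in MHCC97L-Src (edgeR log2 fold change -1.84 ± 0.25, adjusted p = 0.00308). HLA-DRA was at 5.10, 3.63 and 4.97 CPM and 0.473, 0.978 and 0.549 CPM in that order (edgeR log2 fold change -2.78 ± 0.35, adjusted p = 0.00188). HLA-DPA1 was at 1.22, 0.920 and 0.949 CPM and 0.355, 0.130 and 0.165 CPM (edgeR log2 fold change -2.21 ± 0.50, adjusted p = 0.0338). Its Src 2 level was below the floor of 3 counts and its Src 3 level about at it, so the size of its fold change is uncertain. CD74, HLA-DRA and HLA-DPA1 were low next to their MHCC97L-Oxa level in each MHCC97L-Src library. CIITA, the master activator of class II genes, was low in both, at 6.09, 4.22 and 4.30 CPM and 2.31, 2.22 and 1.81 CPM (edgeR log2 fold change -1.21 ± 0.27, adjusted p = 0.0323). These class II genes were separate between the lines in all libraries. HLA-DRB1 had an edgeR log2 fold change of -2.86 ± 0.76 with an adjusted p of 0.0639 and was not called. Class II genes share near-identical sequence, so counts of single members are uncertain. This MHCC97L-Oxa count was 2 to 6 with 1 library left out, 2 without Oxa 1, Oxa 2, Oxa 3 or Src 1. CSF1R and CD68 of the 14 leukocyte markers were also higher in MHCC97L-Oxa, and the summed level of these markers was 154 to 158 CPM there against 77.5 to 110.6 CPM in MHCC97L-Src, while PTPRC and LYZ, which define leukocytes, were at 0. Most of this sum came from CD68. The edgeR calls that depended on single libraries were those of HLA-DPA1 without Oxa 1, Oxa 2, Oxa 3, Src 1 or Src 2 (adjusted p up to 0.124) and CIITA and CD68 without Oxa 1, Oxa 2, Oxa 3 or Src 1 (adjusted p up to 0.117). In edgeR fits that left out 1 library, the call was lost for CSF1R without Oxa 1, Oxa 2 or Src 1 (adjusted p up to 0.0752).

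Few inflammatory genes were called. Of 24 NF-κB targets and cytokines, 2 were higher in MHCC97L-Oxa, IL11 and TREM1. IL11, a cytokine induced by TGF-β, was at 3.99, 4.66 and 4.13 CPM in MHCC97L-Oxa and 1.12, 0.652 and 1.26 CPM in MHCC97L-Src (edgeR log2 fold change -2.05 ± 0.32, adjusted p = 0.00538). TREM1, a receptor that amplifies inflammation, was at 7.26, 5.20 and 5.86 CPM and 2.54, 1.63 and 1.26 CPM (edgeR log2 fold change -1.76 ± 0.30, adjusted p = 0.00964). On the MHCC97L-Src side there were 0 by edgeR, 0 by DESeq2 and 3 at an unadjusted p under 0.05. In the TNF receptor family of 25 tested genes, TNFRSF1B was the single call by edgeR, and the number higher in MHCC97L-Oxa was 0 by edgeR, 2 by DESeq2 and 6 at an unadjusted p under 0.05. Of 34 interferon-stimulated and HLA class I genes, 1 was called in each direction, ISG20 higher in MHCC97L-Src (edgeR log2 fold change 1.38 ± 0.25, adjusted p = 0.0129) and IFI44 higher in MHCC97L-Oxa (edgeR log2 fold change -1.60 ± 0.39, adjusted p = 0.0463). The count on the MHCC97L-Src side was 0 to 7 with 1 library left out, 0 without Oxa 2, Oxa 3 or Src 1 and 3 or 7 without Src 2 or Src 3. Leaving out 1 library at a time ended the edgeR call of ISG20 without Oxa 2, Oxa 3 or Src 1 (adjusted p up to 0.0893) and IFI44 without Oxa 1, Oxa 2, Oxa 3, Src 1 or Src 2 (adjusted p up to 0.189).

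The genes of lipid synthesis that were called were higher in MHCC97L-Src, as were 2.12% of all tested genes. With 2.52% of all tested genes called higher in MHCC97L-Oxa, 0 calls on that side are common in lists this short. Of 23 genes of cholesterol synthesis and its regulation, 4 were higher in MHCC97L-Src, with a median of 0.22, and the number higher in MHCC97L-Oxa was 0 by edgeR, by DESeq2 and at an unadjusted p under 0.05. INSIG1, which holds back the activation of SREBP factors and is itself their target, had an edgeR log2 fold change of 0.69 ± 0.15 with an adjusted p of 0.0328, and LSS, lanosterol synthase, was at 62.8, 55.3 and 57.8 CPM in MHCC97L-Oxa and 109.6, 128 and 88.8 CPM in MHCC97L-Src (edgeR log2 fold change 0.89 ± 0.14, adjusted p = 0.00698). The count was 1 to 6 with 1 library left out, 1 or 2 without Oxa 1, Oxa 2, Oxa 3 or Src 1, and 6 once GC content and gene length were corrected for. For cholesterol genes it was 0 with all 9 libraries in 1 edgeR fit, where 5 had an unadjusted p under 0.05, and 5 by DESeq2 on the 6 libraries. Of 14 fatty acid synthesis genes, 2 were higher in MHCC97L-Src. FASN, fatty acid synthase, was at 427, 505 and 433 CPM in MHCC97L-Src and 255, 218 and 226 CPM in MHCC97L-Oxa (edgeR log2 fold change 0.96 ± 0.11, adjusted p = 0.00114), and SREBF1, the factor that drives it, was at 400.5, 491 and 385 CPM and 252, 243 and 245 CPM in that order (edgeR log2 fold change 0.78 ± 0.11, adjusted p = 0.00432). DHCR7, the last enzyme of cholesterol synthesis, was at 147, 178 and 134 CPM and 114, 99.3 and 101 CPM (edgeR log2 fold change 0.55 ± 0.13, adjusted p = 0.0395). FASN and SREBF1 were each less than 2-fold higher, with no overlap between the lines. The number higher in MHCC97L-Oxa was 0 by edgeR, by DESeq2 and at an unadjusted p under 0.05, and the number higher in MHCC97L-Src was 0 with all 9 libraries in 1 edgeR fit, where 2 had an unadjusted p under 0.05, and 2 by DESeq2 on the 6 libraries. The edgeR call did not hold for INSIG1 and DHCR7 without Oxa 1, Oxa 2, Oxa 3 or Src 1 (adjusted p up to 0.224) and LSS without Oxa 2 (adjusted p up to 0.0639).

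Both enzymes called of 10 prostaglandin genes were higher in MHCC97L-Src, PTGS1, cyclooxygenase 1, at 136, 132 and 124 CPM against 56.95, 50.7 and 49.5 CPM (edgeR log2 fold change 1.31 ± 0.11, adjusted p = 1.66e-04), and PTGES, prostaglandin E synthase, at 179, 228 and 174 CPM against 100.5, 111 and 110.1 CPM (edgeR log2 fold change 0.85 ± 0.13, adjusted p = 0.00507). They were called with any 1 library left out. In the other direction, towards MHCC97L-Oxa, the number was 0 by edgeR, 1 by DESeq2 and 3 at an unadjusted p under 0.05.

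The handling of platinum was examined because 1 of the drugs is a platinum compound. Of 32 genes that repair platinum lesions, the number higher in MHCC97L-Oxa was 0 by edgeR, 0 by DESeq2 and 3 at an unadjusted p under 0.05, and the number higher in MHCC97L-Src was 0 by edgeR, by DESeq2 and at an unadjusted p under 0.05. Of 5 metallothioneins, 2 were higher in MHCC97L-Oxa, MT1X at 136, 131 and 150.4 CPM against 51.3, 49.96 and 46.7 CPM in MHCC97L-Src (edgeR log2 fold change -1.50 ± 0.12, adjusted p = 8.39e-05) and MT2A (edgeR log2 fold change -0.71 ± 0.14, adjusted p = 0.0167). Metallothioneins are near-identical to each other, so their single counts are uncertain. Of 11 ABC drug transporters, ABCC3, which exports conjugates, was called, at 314, 350.4 and 333 CPM in MHCC97L-Oxa and 127, 129 and 116 CPM in MHCC97L-Src (edgeR log2 fold change -1.43 ± 0.10, adjusted p = 5.88e-05). Genes higher in MHCC97L-Src numbered 0 by edgeR, by DESeq2 and at an unadjusted p under 0.05. Of 12 genes of copper and platinum transport, the metal reductase STEAP3 was higher in MHCC97L-Oxa, at 189, 172 and 178 CPM against 85.9, 96.2 and 76.6 CPM (edgeR log2 fold change -1.06 ± 0.12, adjusted p = 8.08e-04). Its relative STEAP4 was higher in MHCC97L-Src, at 31.8, 22.05 and 40.5 CPM against 12.8, 13.6 and 15.4 CPM (edgeR log2 fold change 1.18 ± 0.23, adjusted p = 0.0171). With 1 library fewer, edgeR no longer called MT2A without Oxa 2, Oxa 3 or Src 1 (adjusted p up to 0.123) and STEAP4 without Oxa 1, Oxa 2, Oxa 3 or Src 1 (adjusted p up to 0.112).

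Targets of NRF2, the factor of the antioxidant response, were called in both directions, 4 higher in MHCC97L-Src and 3 higher in MHCC97L-Oxa of 28 tested. NQO1, a quinone reductase, had an edgeR log2 fold change of 0.55 ± 0.12 with an adjusted p of 0.0248. AKR1C1, an aldo-keto reductase, was at 17.2, 16.5 and 20.5 CPM in MHCC97L-Src and 48.6, 40.99 and 45.05 CPM in MHCC97L-Oxa (edgeR log2 fold change -1.31 ± 0.16, adjusted p = 0.00135). OSGIN1, a growth inhibitor induced by oxidative stress, was at 8.28, 10.1 and 6.20 CPM and 3.93, 3.47 and 4.35 CPM (edgeR log2 fold change 1.06 ± 0.24, adjusted p = 0.0385). NFE2L2, which encodes NRF2, was lower in MHCC97L-Src (edgeR log2 fold change -0.67 ± 0.16, adjusted p = 0.0392). For the genes higher in MHCC97L-Src the count was 1 to 6 with 1 library left out, 1 without Oxa 1, Oxa 2, Oxa 3 or Src 1. It was 0 with all 9 libraries in 1 edgeR fit, where 4 had an unadjusted p under 0.05, and 5 by DESeq2 on the 6 libraries. Without 1 library, edgeR dropped NQO1, OSGIN1 and NFE2L2 without Oxa 1, Oxa 2, Oxa 3 or Src 1 (adjusted p up to 0.212).

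Of 21 p53 targets, 1 was higher in MHCC97L-Src, GDF15, and the number higher in MHCC97L-Oxa was 0 by edgeR, 0 by DESeq2 and 3 at an unadjusted p under 0.05. CDKN1A, the p21 inhibitor of the cell cycle, was at 276, 369.6 and 238 CPM in MHCC97L-Src and 354, 362 and 354 CPM in MHCC97L-Oxa (edgeR log2 fold change -0.28 ± 0.15, adjusted p = 0.317). In the BCL2 family of 15 genes, BMF, an activator of apoptosis in detached cells, was at 25.7, 27.8 and 27.5 CPM in MHCC97L-Oxa and 12.3, 14.02 and 10.7 CPM in MHCC97L-Src (edgeR log2 fold change -1.14 ± 0.17, adjusted p = 0.00423), and the number higher in MHCC97L-Src was 0 by edgeR, 0 by DESeq2 and 2 at an unadjusted p under 0.05.

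The study named 21 drug resistance genes and 16 Wnt genes from these same libraries, so their counts are not independent evidence of a direction. Of 20 tested drug resistance genes, 4 were higher in MHCC97L-Oxa and 1 in MHCC97L-Src, and of 15 tested Wnt genes these numbers were 2 and 1. For drug resistance genes higher in MHCC97L-Oxa the count was 1 to 6 with 1 library left out, 1 without Oxa 1, Oxa 2, Oxa 3 or Src 1, and in MHCC97L-Src 0 to 2 with 1 library left out, 0 without Oxa 1, Oxa 2, Oxa 3 or Src 1 and 2 without Src 2 or Src 3. The first count was 0 with all 9 libraries in 1 edgeR fit, where 6 had an unadjusted p under 0.05, and 5 by DESeq2 on the 6 libraries. For Wnt genes the counts were 1 to 2 with 1 library left out, 1 without Oxa 1, Oxa 2, Oxa 3 or Src 1, and 0 to 2 with 1 library left out, 0 without Oxa 2, Oxa 3 or Src 1 and 2 without Src 3. ABCG1, a cholesterol exporter, was at 25.3, 29.3 and 23.4 CPM in MHCC97L-Oxa and 25.1, 28.1 and 31.7 CPM in MHCC97L-Src, with overlap, and was not called between them (edgeR log2 fold change 0.12 ± 0.16, adjusted p = 0.738). Both resistant lines lay far above the parental libraries, which were at 0.722, 1.11 and 1.73 CPM. The 95% interval of the log2 fold change of ABCG1 between the resistant lines was -0.25 to 0.49. DKK1, a secreted inhibitor of Wnt signalling and itself a target of it, was at 9.92, 7.91 and 7.31 CPM in MHCC97L-Oxa and 2.19, 1.30 and 2.30 CPM in MHCC97L-Src (edgeR log2 fold change -2.10 ± 0.28, adjusted p = 0.00250). NKD2, another inhibitor of the pathway, had an edgeR log2 fold change of -0.95 ± 0.21 with an adjusted p of 0.0284, and SERPINF1 was at 0.554, 0.487 and 0.223 CPM in MHCC97L-Oxa and 2.43, 2.15 and 1.65 CPM in MHCC97L-Src (edgeR log2 fold change 2.27 ± 0.41, adjusted p = 0.0124). Of 13 beta-catenin targets, 3 were higher in MHCC97L-Oxa, and the number higher in MHCC97L-Src was 0 by edgeR, 0 by DESeq2 and 4 at an unadjusted p under 0.05. The first number was 1 to 3 with 1 library left out, 1 without Oxa 2, Oxa 3 or Src 1. The edgeR calls that depended on single libraries were those of NKD2 without Oxa 1, Oxa 2, Oxa 3 or Src 1 (adjusted p up to 0.166) and SERPINF1 without Oxa 2, Oxa 3 or Src 1 (adjusted p up to 0.0720).

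Hypoxia targets were higher in MHCC97L-Oxa in 6 of 16, with a median of -0.65, whereas 0 of 17 glycolysis genes were called by edgeR. Over the 33 genes of both groups, the number higher in MHCC97L-Src was 0 by edgeR, by DESeq2 and at an unadjusted p under 0.05. P4HA2, a prolyl hydroxylase of collagen, was at 241, 228 and 250.3 CPM in MHCC97L-Oxa and 112, 133 and 105 CPM in MHCC97L-Src (edgeR log2 fold change -1.05 ± 0.12, adjusted p = 9.26e-04). LOX, the enzyme that crosslinks collagen, had an edgeR log2 fold change of -0.84 ± 0.16 with an adjusted p of 0.0162. For the same 33 genes, and not the 16 hypoxia targets alone, the count higher in MHCC97L-Oxa was 2 to 15 with 1 library left out. It was 2 or 3 without Oxa 1, Oxa 2 or Src 1 and 12 or 15 without Src 2 or Src 3. In edgeR fits that left out 1 library, the call was lost for LOX without Oxa 1 or Oxa 2 (adjusted p up to 0.101).

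S100 proteins and annexins were called in both directions, 2 higher in MHCC97L-Src and 3 higher in MHCC97L-Oxa of 24. The count in MHCC97L-Src was 2 to 6 with 1 library left out, 6 without Src 3, and that in MHCC97L-Oxa 1 to 5 with 1 library left out, 1 without Oxa 3 or Src 1 and 5 without Src 2 or Src 3. S100A9, a calcium-binding protein of inflammation, was at 37.2, 39.3 and 37.7 CPM in MHCC97L-Src and 13.2, 13.4 and 13.96 CPM in MHCC97L-Oxa (edgeR log2 fold change 1.49 ± 0.14, adjusted p = 3.79e-04). ANXA8, an annexin, was at 11.4, 10.3 and 8.78 CPM and 33.4, 26.7 and 29.9 CPM (edgeR log2 fold change -1.57 ± 0.17, adjusted p = 8.22e-04), but has a near-identical copy, ANXA8L1, so its count is uncertain. S100A2, a S100 protein of keratinocytes, was at 4.38, 5.67 and 3.68 CPM and 11.97, 8.45 and 11.7 CPM (edgeR log2 fold change -1.23 ± 0.24, adjusted p = 0.0177). ANXA1, annexin 1, was also lower in MHCC97L-Src (edgeR log2 fold change -0.91 ± 0.20, adjusted p = 0.0296). Tetraspanins had CD82 as the single call by edgeR among 18, and the Notch pathway had NRARP, a Notch target, among 16 (edgeR log2 fold change 0.74 ± 0.15, adjusted p = 0.0239). Leaving out 1 library at a time ended the edgeR call of S100A2 without Oxa 1, Oxa 3 or Src 1 (adjusted p up to 0.0949) and ANXA1 without Oxa 2, Oxa 3 or Src 1 (adjusted p up to 0.144). The edgeR call did not hold for NRARP without Oxa 1, Oxa 2, Oxa 3 or Src 1 (adjusted p up to 0.156).

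Targets of the liver X receptor gave 1 call of 10, SREBF1, and the number higher in MHCC97L-Oxa was 0 by edgeR, by DESeq2 and at an unadjusted p under 0.05. Of the 8 hepatocyte genes that passed the filter, AMBP, a plasma protein precursor, was higher in MHCC97L-Src (edgeR log2 fold change 2.32 ± 0.56, adjusted p = 0.0442), and so was POR, the electron donor of cytochromes P450, among 12 drug-metabolizing enzymes (edgeR log2 fold change 0.57 ± 0.12, adjusted p = 0.0289). KLF4, a factor of stem cells and of epithelia, was the single call among 10 stem cell markers and was lower in MHCC97L-Src (edgeR log2 fold change -0.92 ± 0.19, adjusted p = 0.0213). With 1 library fewer, edgeR no longer called AMBP without Oxa 1, Oxa 2, Oxa 3, Src 1 or Src 2 (adjusted p up to 0.212) and POR without Oxa 1, Oxa 2, Oxa 3 or Src 1 (adjusted p up to 0.153). Without 1 library, edgeR dropped KLF4 without Oxa 1, Oxa 2 or Src 1 (adjusted p up to 0.127).

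Growth and stress groups gave calls near or below the background of 2.12% and 2.52%. Of 43 cell cycle and replication genes, 1 was higher in MHCC97L-Oxa and the number higher in MHCC97L-Src was 0 by edgeR, 0 by DESeq2 and 6 at an unadjusted p under 0.05. Of 26 genes of the integrated stress and unfolded protein responses, the number higher in MHCC97L-Oxa was 0 by edgeR, 0 by DESeq2 and 2 at an unadjusted p under 0.05, and the number higher in MHCC97L-Src was 0 by edgeR, 0 by DESeq2 and 1 at an unadjusted p under 0.05. Of 127 ribosome genes the numbers were 0 by edgeR, 3 by DESeq2 and 13 at an unadjusted p under 0.05 for MHCC97L-Oxa, and 0 by edgeR, 0 by DESeq2 and 10 at an unadjusted p under 0.05 for MHCC97L-Src. These counts depended on the setting. With Src 3 left out edgeR called 11 ribosome genes higher in MHCC97L-Oxa and 14 higher in MHCC97L-Src, and for cell cycle and replication genes it called 7 and 6. With GC content and gene length corrected for, cell cycle and replication genes had 3 calls in each direction.

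Pathways were also counted as KEGG defines them, from the annotation in the deposited table. Focal adhesion had 23 genes higher in MHCC97L-Oxa and 4 higher in MHCC97L-Src of 148, with a median of -0.15. ECM-receptor interaction had 13 and 1 of 49, with a median of -0.23. TGF-β signaling had 10 and 1 of 64, and PI3K-Akt signaling had 21 and 4 of 224. The shares higher in MHCC97L-Oxa were all above the 2.52% of all genes, but the pathways share members. Focal adhesion, ECM-receptor interaction and PI3K-Akt signaling share collagens, laminins and integrins, and TGF-β signaling shares THBS1 with them. For focal adhesion the count was 7 to 33 with 1 library left out, 7, 10, 11 or 14 without Oxa 1, Oxa 2, Oxa 3 or Src 1, and in the other direction 0 to 10 with 1 library left out, 0 or 1 without Oxa 1, Oxa 2, Oxa 3 or Src 1 and 10 without Src 3. For ECM-receptor interaction it was 5 to 18 with 1 library left out, 5 or 7 without Oxa 2, Oxa 3 or Src 1. For TGF-β signaling it was 6 to 14 with 1 library left out, 6 without Oxa 2, and for PI3K-Akt signaling 7 to 38 with 1 library left out, 7, 9, 11 or 13 without Oxa 1, Oxa 2, Oxa 3 or Src 1 and 36 or 38 without Src 2 or Src 3. PI3K-Akt genes higher in MHCC97L-Src were 0 to 13 with 1 library left out, 0 without Oxa 1, Oxa 2, Oxa 3 or Src 1 and 7 or 13 without Src 2 or Src 3. With all 9 libraries in 1 fit, the counts higher in MHCC97L-Oxa were 3 for focal adhesion, 2 for ECM-receptor interaction, 4 for TGF-β signaling and 3 for PI3K-Akt signaling. Lysosome genes had 7 higher in MHCC97L-Src and 3 higher in MHCC97L-Oxa of 108, the first count being 0 to 18 with 1 library left out, 0 or 1 without Oxa 1, Oxa 2, Oxa 3 or Src 1 and 18 without Src 3 and the second 0 to 9 with 1 library left out, 0 or 1 without Oxa 1, Oxa 2 or Src 1 and 5 or 9 without Src 2 or Src 3. MAPK signaling was called in both directions, 9 higher in MHCC97L-Src and 12 higher in MHCC97L-Oxa of 214. The MAPK count for MHCC97L-Src was 2 to 16 with 1 library left out, 2 or 4 without Oxa 1, Oxa 2, Oxa 3 or Src 1 and 16 without Src 3. For MHCC97L-Oxa it was 2 to 23 with 1 library left out, 2 or 4 without Oxa 1, Oxa 2, Oxa 3 or Src 1 and 20 or 23 without Src 2 or Src 3, and with GC content and gene length corrected for it was 27. All 9 libraries in 1 fit gave 1 MAPK call in each direction.

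**Figure D4:**
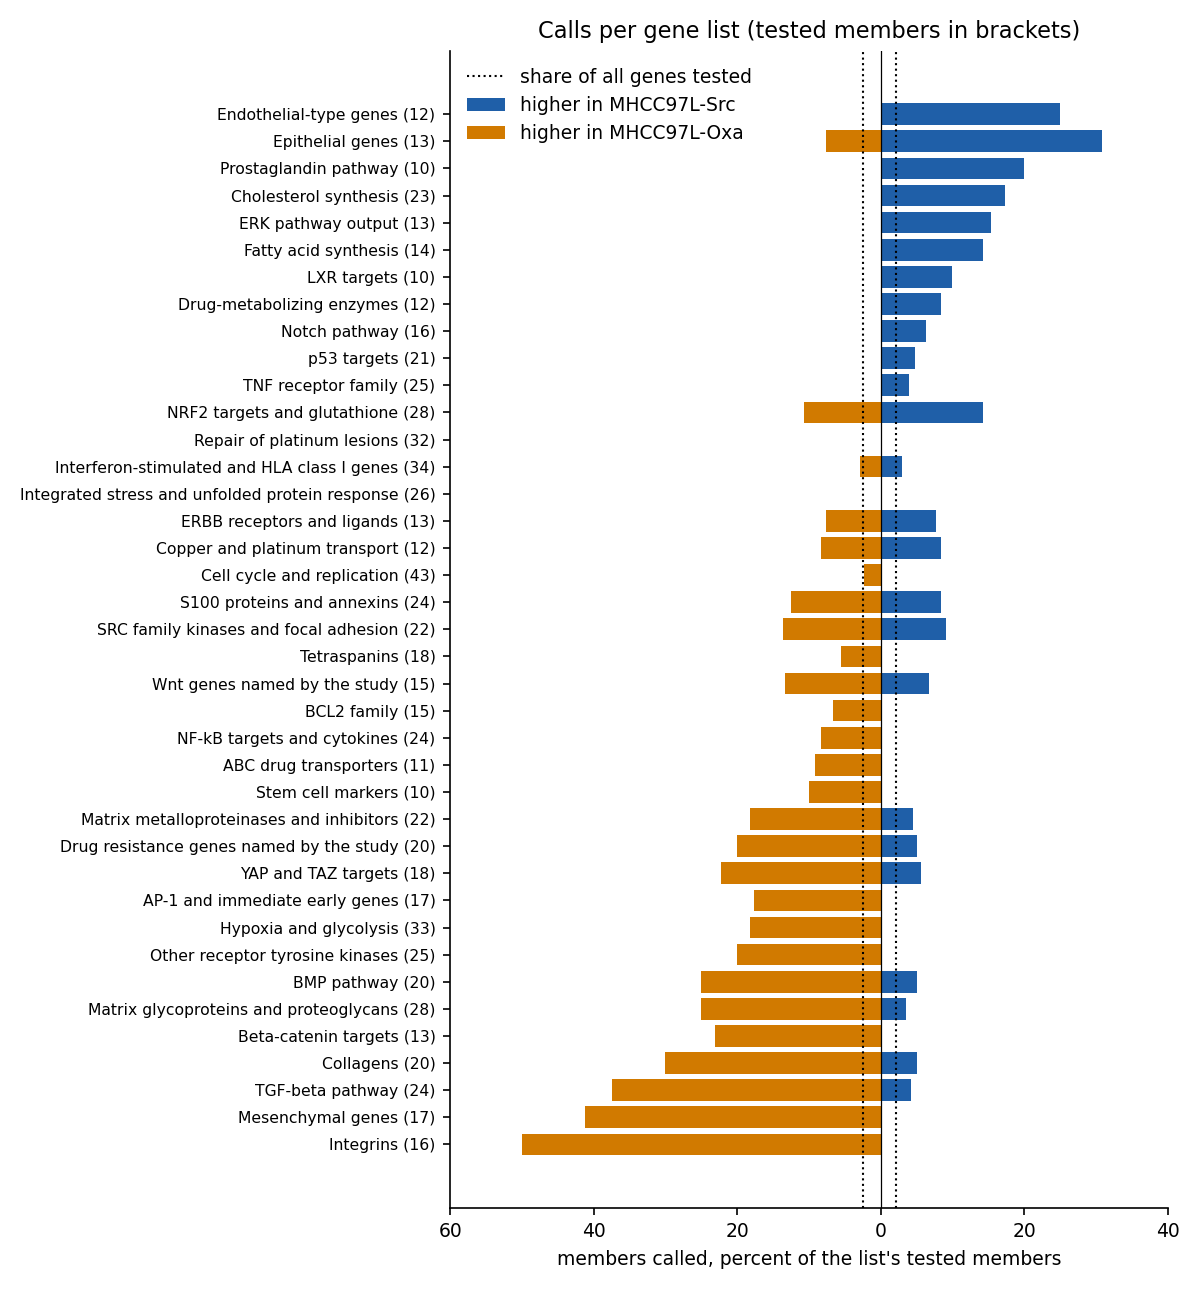
Percent of the tested members of each list that were called higher in MHCC97L-Src (right) and higher in MHCC97L-Oxa (left), for lists with at least 10 tested members. Dotted lines mark the shares of all tested genes, 2.12% and 2.52%, and integrins, mesenchymal genes and TGF-β genes reach farthest to the MHCC97L-Oxa side.

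The largest changes were mostly in genes of low level. MUC6, a gel-forming mucin, had 58, 59 and 48 counts in MHCC97L-Src and 0 in every MHCC97L-Oxa library, at least 19.98-fold higher against a floor of 3 counts per library. MUC4, a membrane mucin, had 13, 12 and 15 counts in MHCC97L-Src against 0, 0 and 1 in MHCC97L-Oxa, a ratio of 43.1 with a 95% counting interval of 7.31 to 1746. PPP1R1B, a phosphatase inhibitor, had 22, 28 and 10 counts against 1, 0 and 1, a ratio of 32.4 (8.58 to 273). In these 3 genes the MHCC97L-Oxa libraries held at most 1 count each. The neighbours PRSS56, a serine protease, and CHRND, a subunit of the muscle acetylcholine receptor, lie next to each other on the plus strand of chromosome 2 and had ratios of 21.6 (7.04 to 108) and 16.7 (4.25 to 144). LOC101927503, an uncharacterized transcript, reached 46.6, 60.1 and 44.1 CPM in MHCC97L-Src and 2.55, 1.73 and 3.29 CPM in MHCC97L-Oxa (edgeR log2 fold change 4.31 ± 0.25, adjusted p = 1.33e-05). IP6K3, an inositol phosphate kinase, had 71, 86 and 103 counts in MHCC97L-Src against 5, 1 and 4 in MHCC97L-Oxa (edgeR log2 fold change 4.75 ± 0.44, adjusted p = 2.70e-04). TNFRSF1B, CDH5 and NEURL1, an E3 ubiquitin ligase with 20, 13 and 12 counts in MHCC97L-Src against 1, 3 and 2 in MHCC97L-Oxa, complete the 10. The edgeR calls that depended on single libraries were those of MUC4, PPP1R1B and PRSS56 without Oxa 2 (adjusted p up to 0.0586) and CHRND without Oxa 2, Oxa 3 or Src 1 (adjusted p up to 0.154). In edgeR fits that left out 1 library, the call was lost for NEURL1 without Oxa 1, Oxa 2, Oxa 3 or Src 1 (adjusted p up to 0.0961).

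On the other side C5orf46 had 17, 16 and 12 counts in MHCC97L-Oxa and none in any MHCC97L-Src library, a level at least 4.61-fold higher. LBH, a transcription cofactor, had 33, 42 and 40 counts in MHCC97L-Oxa and 3, 0 and 4 in MHCC97L-Src. KANK4, an adaptor of focal adhesions, had 29, 24 and 17 counts in MHCC97L-Oxa and 2, 3 and 0 in MHCC97L-Src. KANK4 had 274, 241 and 202 counts in the parental line, so both resistant lines lay below it. CALHM3, a calcium-gated channel subunit, had 45, 57 and 66 counts in MHCC97L-Oxa and 4, 13 and 4 in MHCC97L-Src (edgeR log2 fold change -2.85 ± 0.48, adjusted p = 0.00879). ID2, CD82 and PMEPA1 are also among these 10, and TYRP1, LIPG and LOC107985687 complete them with 14 to 21 counts in the MHCC97L-Oxa libraries and at most 5 in the MHCC97L-Src libraries. Leaving out 1 library at a time ended the edgeR call of KANK4 without Oxa 1, Oxa 2 or Src 1 (adjusted p up to 0.0660) and CALHM3 without Oxa 2 (adjusted p up to 0.0516). The edgeR call did not hold for TYRP1, LIPG and LOC107985687 without Oxa 1, Oxa 2, Oxa 3 or Src 1 (adjusted p up to 0.209).

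Each called gene was then placed against the parental libraries by whether the 3 libraries of a resistant line lay wholly above or below those of MHCC97L. Both placements share the same parental libraries. Over all tested genes, MHCC97L-Src alone was apart in 11%, MHCC97L-Oxa alone in 9.45%, both on the same side in 18.2% and both on opposite sides in 0.267%. Of the 254 genes higher in MHCC97L-Src, 104 had MHCC97L-Src alone apart, 32 MHCC97L-Oxa alone, 84 both on the same side and 6 both on opposite sides. Of the 302 genes higher in MHCC97L-Oxa, these numbers were 104, 77, 55 and 21. The contrast between the lines thus held genes that had left the parental level in either line. Genes called between the lines had to be apart from each other, so their shares exceed those of all genes by selection. With levels corrected for GC content and gene length, an alternative added after the data were seen, the numbers were 71, 49, 94 and 27 of 252 genes higher in MHCC97L-Src and 70, 71, 86 and 41 of 300 genes higher in MHCC97L-Oxa.

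**Figure D5:**
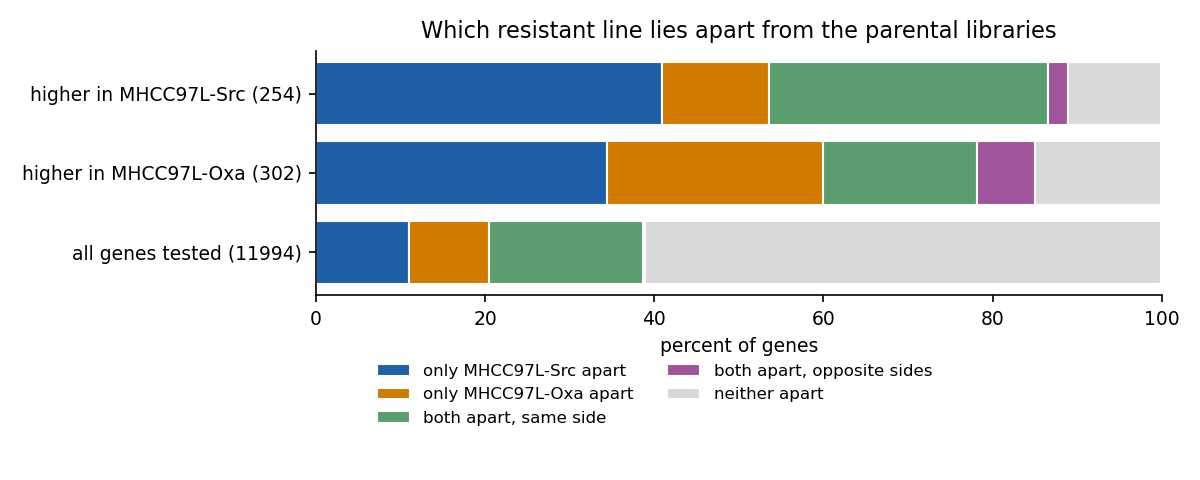
Stacked bars of the percent of genes in each placement against the parental libraries, for the 254 genes higher in MHCC97L-Src, the 302 higher in MHCC97L-Oxa and all 11994 tested. MHCC97L-Src alone was apart in 40.9% and 34.4% of the called genes and in 11% of all genes.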

How the data were processed

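RNA of the 9 libraries was sequenced from stranded, poly(A) selected libraries. The submitters' processing notes name Trimmomatic 0.36, HISAT2 2.2.1.0 and GRCh38.p12, and the counting program and its use of strand are not given in the sources used here, so overlapping antisense genes cannot be told apart. The authors deposited raw counts per gene and, separately, FPKM values for the same genes. Libraries were grouped by the drug in their labels, which shorten the name of the oxaliplatin-resistant line.

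MHCC97L-Src was compared with MHCC97L-Oxa on the deposited counts of their 6 libraries by edgeR's quasi-likelihood test (filterByExpr with a minimum count of 10, TMM factors, Benjamini-Hochberg adjustment over 11994 genes, adjusted p under 0.05). Standard errors come from edgeR's F statistic, as the fold change on the log2 scale over its root, and 95% intervals use the matching t distribution. Alternatives were other size factors and filters, DESeq2, limma on log2(FPKM + 1) and log2(FPKM + 0.1), a replicate block, all 9 libraries in 1 fit, stricter thresholds, each library left out, and spline offsets (5 degrees of freedom each) for GC content and gene length. Genes named are the 8 leading genes, the 10 largest rises and falls among called genes whose higher line had 10 or more counts in all of its libraries, and, with values per library, the up to 4 called members of each list that had the largest fold changes. Other called members have a single fold change. Some called members of the lists are not reported here. SRC, ABCG1, VIM, CDH2, TGFB1, EGFR, HLA-DRB1 and CDKN1A, which were not called, were chosen after their values were seen. So were the markers CPS1, CEBPA, FOXA1, PECAM1, ESAM, CD14, CSF1R, CD68, THY1 and COL1A1. The 46 lists, 25 KEGG pathways and the members were chosen with earlier results of these data known. Levels near 0 were compared with a floor of 3 counts per library. Counts ranged from 16970486 to 18209213 per library, which limits folds of low genes. Scripts were tested on simulated data. Promoters are those of RefSeq on GRCh38.p14, and other positions are those of GENCODE 29. The tools were edgeR 4.0.16, DESeq2 1.42.0 and limma 3.58.1 in R 4.3.3, with figures by matplotlib 3.10.9 and summaries by SciPy 1.17.1 and pandas 2.3.3 in Python 3.11.15.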

Additional observations from a re-analysis of the deposited data

How the results depend on the processing

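The 556 called genes (254 higher in MHCC97L-Src, 302 higher in MHCC97L-Oxa) became 86 (27 and 59) with all 9 libraries in 1 fit, 837 (395 and 442) with DESeq2, 1162 (556 and 606) with the GC content and gene length correction, 210 (86 and 124) at an adjusted p under 0.01 and 268 (104 and 164) with an absolute log2 fold change over 1 as well. With all 9 libraries, genes higher in MHCC97L-Oxa fell from 9 to 5 in the TGF-β pathway, from 5 to 4 in the BMP pathway, from 6 to 2 among collagens, from 7 to 2 among matrix glycoproteins and from 7 to 2 among mesenchymal genes. The replicate block gave 406 (156 and 250), and with the GC correction as well 483 (184 and 299). Same-numbered libraries did not deviate together (correlations 0.03, -0.09 and -0.29), and not every library correlated best with its own number. The deviations were taken from the mean of only 3 libraries per line, so they cannot decide whether the numbers pair the libraries. With 1 library left out the calls ranged from 167 to 1617 (67 to 794 higher in MHCC97L-Src, 100 to 823 higher in MHCC97L-Oxa). In all 3 counts the high ends came without Src 3 and the low ends without Oxa 2. The cause of these changes was not tested. SRC, which was not called, ranged from -0.51 to 0.13 with 1 library left out, turning to 0.13 without Oxa 1 and to 0.04 without Src 3. The fold changes of the other named genes kept their direction. The 8 leading genes were called under every alternative in which they were fitted, with an adjusted p of at most 0.0229. They were taken as markers of the contrast when it was defined, so their calls do not speak for the other genes. Depth limits the genes near the floor, such as MUC4, C5orf46 and TYRP1.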
